A study of Homo sapiens with 12 samples.

Results

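INTS13, INTS11, HDGF, ZEB1 and ZNF609 were mapped by chromatin immunoprecipitation and sequencing, and the places where peaks of all 5 proteins met are described here. A region entered the set if it was an INTS13 region found in both INTS13 libraries and overlapped, by 1 bp or more, a region of INTS11, of HDGF, of ZEB1 and of ZNF609, each likewise found in both libraries of its protein. This gave 4549 shared regions out of 203599 INTS13 regions (2.23%). The members were chosen by the peak calls of all 10 lists, so the presence, height and width of peaks in them are given as descriptions and not tested. All libraries came from wild-type HEK293T cells, a human embryonic kidney line kept in culture, with no treatment named, and the design asked whether INTS13 and its interacting transcription factors sit at common genomic loci. Each protein had 2 libraries, made with an antibody of its own: Proteintech antibodies against INTS13, HDGF and ZEB1, one from Atlas Antibodies against INTS11, and against ZNF609 one raised in an earlier study. The 2 input libraries were not analysed here. The sources do not say whether the replicates were separate cultures, so the spread between libraries may be technical, and a single cell line limits what the regions stand for.

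INTS13 and INTS11 are subunits of Integrator, a complex that binds RNA polymerase II and cuts nascent transcripts, those of small nuclear RNA genes and of many paused genes among them. INTS11 is the subunit that cuts, while INTS13 belongs to an arm of the complex that has been linked to binding of transcription factors. HDGF carries a PWWP domain, a fold that reads chromatin. ZEB1 is a zinc finger and homeodomain protein that binds E-boxes and holds epithelial genes down. ZNF609, also a zinc finger protein, is known as a partner of Integrator and of the cohesin loader in neural progenitors.

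The promoters below lie whole inside the shared regions that ranked highest among those holding a promoter. They are shown because strong peaks of each of the 5 proteins lay in the protein regions meeting there. Such a peak can lie beyond the shared region. Sequences are from RefSeq (GRCh38.p14), the 250 bases before the annotated start, 5′ to 3′ on the gene's strand. TLE4 is at chr9:79571715-79571964 on the plus strand and PCDH9 at chr13:67230337-67230586 on the minus strand. NBPF1 is at chr1:16613565-16613814 on the minus strand. TMEM184B is at chr22:38273011-38273260 on the minus strand and KDELR3 at chr22:38467846-38468095 on the plus strand. KCNJ4 is at chr22:38444029-38444278 on the minus strand. Capitals mark matches, on either strand, to GGGCGG (the GC box), CCAAT, GCGTGGGCG (read by EGR factors), CAGGTG (the E-box read by ZEB1), TATAAA or TGACGTCA (the cAMP response element).
TLE4: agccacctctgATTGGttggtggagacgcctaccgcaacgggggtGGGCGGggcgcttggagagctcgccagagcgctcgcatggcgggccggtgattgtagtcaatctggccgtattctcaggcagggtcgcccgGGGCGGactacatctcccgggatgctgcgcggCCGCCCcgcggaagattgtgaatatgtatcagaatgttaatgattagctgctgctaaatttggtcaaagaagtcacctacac
PCDH9: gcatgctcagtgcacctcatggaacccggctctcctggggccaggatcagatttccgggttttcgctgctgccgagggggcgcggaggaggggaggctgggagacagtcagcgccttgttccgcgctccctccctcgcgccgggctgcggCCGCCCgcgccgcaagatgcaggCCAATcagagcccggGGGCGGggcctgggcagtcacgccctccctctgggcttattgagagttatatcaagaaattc
NBPF1: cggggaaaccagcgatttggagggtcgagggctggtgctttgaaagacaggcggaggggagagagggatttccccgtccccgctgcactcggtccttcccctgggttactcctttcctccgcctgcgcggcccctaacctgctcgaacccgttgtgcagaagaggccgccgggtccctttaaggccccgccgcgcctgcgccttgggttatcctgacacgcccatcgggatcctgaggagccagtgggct
TMEM184B: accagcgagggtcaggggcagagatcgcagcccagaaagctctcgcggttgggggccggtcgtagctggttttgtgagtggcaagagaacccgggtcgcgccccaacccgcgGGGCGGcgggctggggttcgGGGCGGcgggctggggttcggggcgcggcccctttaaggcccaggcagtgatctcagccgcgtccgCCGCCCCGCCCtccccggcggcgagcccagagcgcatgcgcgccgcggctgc
KDELR3: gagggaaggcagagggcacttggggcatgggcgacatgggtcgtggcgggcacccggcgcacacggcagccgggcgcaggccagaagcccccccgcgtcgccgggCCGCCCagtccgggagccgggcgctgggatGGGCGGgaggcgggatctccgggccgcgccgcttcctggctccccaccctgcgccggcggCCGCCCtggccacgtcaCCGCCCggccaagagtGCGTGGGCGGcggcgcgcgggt
KCNJ4: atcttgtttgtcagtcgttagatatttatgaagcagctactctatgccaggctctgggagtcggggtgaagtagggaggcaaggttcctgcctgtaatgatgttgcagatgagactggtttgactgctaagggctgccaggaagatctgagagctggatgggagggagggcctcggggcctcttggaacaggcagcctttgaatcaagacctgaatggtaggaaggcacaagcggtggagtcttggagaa
TLE4 carries 3 GC boxes and 1 CCAAT box in these 250 bases, PCDH9 carries 2 and 1, and NBPF1 has 0 matches. TMEM184B carries 4 GC boxes. KDELR3 carries 5, the last of which shares its letters with a match to GCGTGGGCG. KCNJ4 also has 0 matches, and a GC content of 52.4%, beside 59.2% to 80% in the other 5. No CAGGTG is found in these 6 windows. Peaks of all 10 lists overlapped the printed bases of NBPF1 and PCDH9, peaks of 9 lists those of TLE4, TMEM184B and KDELR3, and peaks of 8 lists those of KCNJ4. The missing lists were ZNF609 replicate 2 at TLE4, ZEB1 replicate 1 at TMEM184B, HDGF replicate 2 at KDELR3, and ZEB1 replicate 2 and ZNF609 replicate 1 at KCNJ4.

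Regions of the other proteins fell in the shared regions in very different proportions. The 4549 regions took in 46.0% of the 9918 ZNF609 regions, 38.8% of the 14984 ZEB1 regions, 16.7% of the 44211 HDGF regions and 8.04% of the 52921 INTS11 regions. Of single peaks, they held 23.5% ± 6.39 (SD, n = 2 libraries) of ZNF609 peaks, 19.3% ± 1.34 of ZEB1 peaks, 9.49% ± 1.75 of HDGF peaks, 5.47% ± 2.88 of INTS11 peaks and 1.80% ± 0.363 of INTS13 peaks. By protein these shares follow the length of the lists, the shortest lists giving the largest share. By single list INTS11 replicate 2 broke the order, with 7.50% of 106144 peaks. The longer lists of HDGF replicates 1 and 2 gave 8.25% of 147715 and 10.7% of 114789 peaks. Most INTS13 regions, 147872 or 72.6%, met none of the other proteins, 34603 met 1, 11755 met 2 and 4820 met exactly 3.

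INTS11 was almost always present once the others were. Of 4565 INTS13 regions with HDGF, ZEB1 and ZNF609, 4549 also had INTS11 (99.6%), which left 16 without it. ZEB1 was at 85.7% of the 5308 INTS13 regions that held the other 3 partners, HDGF at 70.7% of 6432 and ZNF609 at 67.8% of 6711. Over all INTS13 regions INTS11 was at 21.1%, HDGF at 13.1%, ZEB1 at 6.0% and ZNF609 at 4.39%. INTS11 regions covered a median of 78.7% of bases in the most crowded 1-Mb bins described below, where 1661 shared regions lay. The 21.1% is therefore no base rate for such places, and how far this coverage gives the 99.6% was not tested. The search can also be turned round, starting from ZNF609. Of 3379 ZNF609 regions that met INTS11, HDGF and ZEB1, 3279 met an INTS13 region (97.0%) and 100 did not. Of these 100, 42 met no INTS13 peak in either list. The share of all 9918 ZNF609 regions that met an INTS13 region was not computed. Whether 97.0% differs from that ordinary rate was therefore not tested.

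Shared regions need not have a base in common, since each partner was only asked to touch the INTS13 region. In 3871 of 4549 (85.1%) at least 1 base lay in regions of all 5 proteins, with a median of 1021 such bases. In 2534 (55.7%) at least 1 base lay in a peak of each of the 10 lists, with a median of 450.5 bases. That last share was 67.5% on chromosome 13, 31.4% on chromosome 1 and 32.8% on the other chromosomes together. Of the bases in shared regions, INTS11 regions covered 94.2%, HDGF regions 60.4%, ZEB1 regions 58.9% and ZNF609 regions 47.4%. Over the bases of all INTS13 regions they covered 24.3%, 11.7%, 6.62% and 4.54%.

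The shared regions are not all separate places. Long partner regions often spanned several of them, and 53.4% of members shared a ZNF609 region with another member, 51.0% a ZEB1 region, 45.7% an HDGF region and 63.0% an INTS11 region. The longest reach was that of a ZNF609 region over 43 members. Members joined in this way through any partner formed 1943 clusters, of which 1276 held 1 member and the largest held 93. Of these clusters 888 lay on chromosome 13, 712 on chromosome 1 and 343 elsewhere.

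Chromosome 13 held 3042 of the shared regions (66.9%) and chromosome 1 held 1053 (23.1%). All INTS13 regions were spread otherwise, with 4.52% on chromosome 13 and 16.3% on chromosome 1. The remaining 454 were led by chromosome 18 with 158, chromosome 7 with 81, chromosome 9 with 51 and chromosome 22 with 44. Of the 23 chromosomes analysed 5 had no shared region: chromosomes 2, 4, 8, 11 and 20. Of the INTS13 regions of chromosome 13, 33.0% were shared by all 5, beside 4.11% on chromosome 18, 3.18% on chromosome 1 and 0.00671% on chromosome 6, where 1 of 14901 was. No test was made of these shares, since neighbouring regions are not independent.

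**Figure D1:**
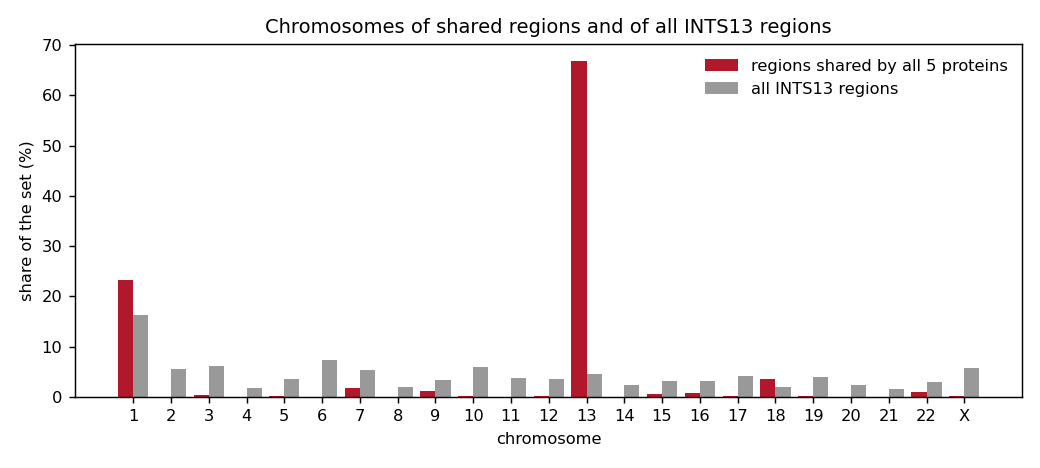
Share of the 4549 regions shared by all 5 proteins (red) and of the 203599 INTS13 regions (grey) on each chromosome, in percent. Chromosome 13 holds 66.9% of the shared regions and 4.52% of all INTS13 regions.

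Shared regions lay where peaks of the lists were crowded. The genome was divided into 3043 bins of 1 Mb, and in each list the number of peaks in a bin was divided by that of an average bin. A bin was called dense where the median of this relative density over the 10 lists exceeded 2. The 382 dense bins held 4435 of the 4549 shared regions (97.5%, 95% Wilson interval 97.0 to 97.9), beside 40.5% of all INTS13 regions, 25.8% of those with no partner and 98.8% of those with exactly 3. The interval counts regions as independent. Of the dense bins 132 held a shared region and 250 held none. Among bins with a relative density above 2 and up to 4, 0.112% of INTS13 regions were shared by all 5. The share was 2.96% from 4 to 6, 7.04% from 6 to 8, 15.6% from 8 to 10, and 31.0% above 10. The median share of bases in ZNF609 regions rose along the same classes from 0% to 14.1%, and that in INTS11 regions from 6.90% to 78.7%. How far this coverage by itself brings regions together was not tested, and neither was whether these stretches also stand out in input chromatin.

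**Figure D2:**
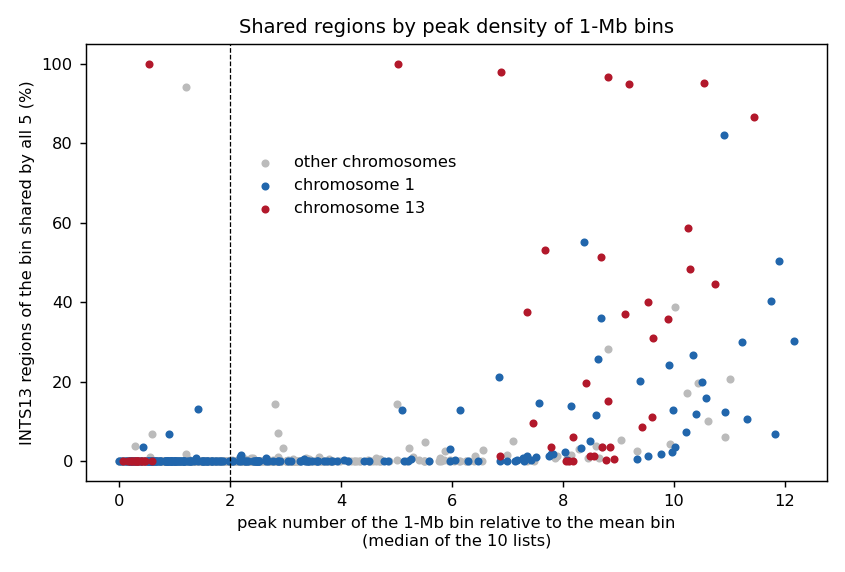
Each point is a 1-Mb bin with at least 20 INTS13 regions (1630 bins). The x axis is the peak number of the bin relative to the mean bin (median of the 10 lists), the y axis the percentage of its INTS13 regions shared by all 5 proteins, and the dashed line marks the limit of 2; the points at or above 94.2% to its left are 1 bin of chromosome 13 and 1 of chromosome 9.

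One stretch of chromosome 13 was saturated. Between 62 and 68 Mb, 1601 of 1685 INTS13 regions were shared by all 5 (95%), from 86.6% to 100% in the 6 bins, and these made up 35.2% of all shared regions. Regions of ZNF609 covered 95.6% of the bases there, those of INTS11 94.8%, of ZEB1 94.2% and of HDGF 78.3%, as means of the 6 bins, while INTS13 regions covered 65.4%. An unbroken row of 434 neighbouring INTS13 regions, all shared by all 5, ran over 1.65 Mb at chr13:65917079-67564060. This row crosses PCDH9, a protocadherin gene of neural cell adhesion, in which 239 of 239 INTS13 regions were shared. From 68 to 95 Mb the share was 21.6% (1398 of 6479), and it ranged from 0% to 58.7% over 27 bins. In the 106 dense bins of chromosome 1 it was 4.77% (1042 of 21862), and the highest, 82.2%, was found at 226 to 227 Mb.

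Gene bodies with the most shared regions followed these stretches. These genes were chosen after their values were seen. After PCDH9 came KLF12, a zinc finger repressor, with 121 of its 175 INTS13 regions shared, DACH1, a nuclear cofactor of eye and limb development, with 72 of 123, and TBC1D4, a Rab GTPase-activating protein of glucose transporter traffic, with 56 of 62. GPC6, a large glypican gene, had 53 of 308, MYCBP2, a ubiquitin ligase gene, 49 of 77, PIBF1, of centriolar satellites, 47 of 80, and LMO7, of actin-linked cell junctions, 45 of 65. GPC5, another large glypican gene of chromosome 13, had 29 of 408. On chromosome 1 the leading genes were ENAH, an actin regulator, with 33 of 46, LIN9, a subunit of the MuvB cell cycle complex, with 22 of 27, and CDC42BPA, a kinase bound by CDC42, with 20 of 93. Exons and introns could not be told apart, as the gene table used gives only the ends of genes.

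Shared regions were wide. Their median width was 2732 bp (quartiles 1350 and 5623), beside 1043 bp for INTS13 regions with no partner, 1577 bp with 1, 2213 bp with 2 and 2343.5 bp with 3. Without INTS13 replicate 2, so with INTS13 regions from replicate 1 alone, the median was 1351.5 bp. On chromosome 13 the median was 1936 bp, on chromosome 1 6106 bp and on chromosome 16 20045.5 bp. The widest, at chr1:31610497-31763298, spanned 152802 bp over HCRTR1, PEF1, COL16A1 and ADGRB2, and only 173 of its bases lay in peaks of all 10 lists. The second, 125285 bp at chr1:28772227-28897511, ran over ends of OPRD1 and EPB41. The third, 115290 bp at chr16:30601884-30717173, ran over ZNF689, PRR14, FBRS and the start of SRCAP. The fourth lay inside CELF4 on chromosome 18, at chr18:37390871-37498240, where 0 bases were in regions of all 5 proteins.

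Peaks in shared regions stood high in their own lists. Height is given as the percentile of the peak's fold within its list, where the fold is the authors' ratio of the summit to the background and the highest peak of the protein's regions that touched the shared region was taken. Such a peak can lie beyond the edge of the shared region itself, and at 4130 of the 4549 regions every list had a peak touching it. Folds of different lists have different backgrounds and are not compared with each other. The median percentile over the 4549 regions was 98.4 and 98.8 in INTS13 replicates 1 and 2, and 99.3 and 99.1 in the INTS11 lists. HDGF had 96.7 and 94.1, ZEB1 had 95.8 and 95.6, and ZNF609 had 95.3 and 92.3. At 90th percentile or above were 94.8% of regions in INTS11 replicate 1 but 52.3% in ZNF609 replicate 2, the list with the fewest peaks. Lists differ in length, so these percentiles describe each list and rank no protein above another. A wide region also offers more peaks to choose the highest from, and its share in these percentiles was not tested.

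**Figure D3:**
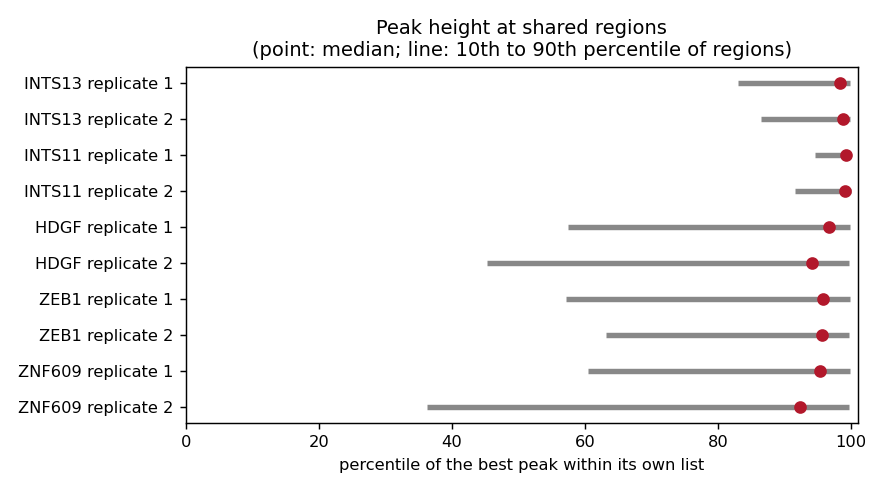
For each of the 10 peak lists (y axis), the percentile of the best peak at the 4549 shared regions within its own list (x axis); points are medians and lines run from the 10th to the 90th percentile of the regions. Medians lie between 92.3 (ZNF609 replicate 2) and 99.3 (INTS11 replicate 1), and the lines reach lowest in ZNF609 replicate 2.

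The list with the lowest of the 10 percentiles varied between regions. It was HDGF replicate 2 at 1124 regions, ZNF609 replicate 2 at 906, HDGF replicate 1 at 603 and ZNF609 replicate 1 at 443. A ZEB1 list was lowest at 778 regions (17.1%), an INTS13 list at 660 (14.5%) and an INTS11 list at 35 (0.769%). These counts too depend on the lists and rank no protein. On chromosome 13 the median of this lowest percentile was 75.5, on chromosome 1 it was 49.7 and elsewhere 45.2. At 267 regions every list had its peak in its top 1%, and 217 of these lay on chromosome 13 and 4 on chromosome 1. Neighbouring regions can be given the same partner peak, so these are not counts of separate peaks. Median percentiles of ZEB1 and ZNF609 were 98.6, 98.4, 98.9 and 97.9 in their lists on chromosome 13 but 83.7, 81.9, 79.9 and 76.4 on chromosome 1. Those of INTS13 replicate 1, at 98.0 and 98.7, differed little between these chromosomes.

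Heights varied together over the members to different degrees. The Spearman correlation of folds over the 4549 regions was 0.863 for the INTS11 replicates, 0.835 for ZNF609, 0.815 for ZEB1, 0.745 for HDGF and 0.722 for INTS13. Over the 40 pairs of different proteins the median was 0.373, with a range from 0.218 (INTS13 and ZNF609, replicate 1 of each) to 0.816 (INTS11 replicate 2 and ZNF609 replicate 1). The 12 pairs among INTS11, ZEB1 and ZNF609 lay between 0.762 and 0.816, above the HDGF and INTS13 replicate pairs. Neighbouring regions share partner peaks, and these correlations are descriptions only.

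The highest region of all lists was one place on chromosome 13. At chr13:62126761-62174617, 47857 bp in no annotated coding or long non-coding gene and 710912 bp from the nearest coding gene, PCDH20, the fold was 16.4 and 13.8 in INTS13 replicates 1 and 2, 10.9 and 11 in INTS11, 10.5 and 10.9 in HDGF, 12.7 and 10.4 in ZEB1, and 10.9 and 10.9 in ZNF609. Each of these is the highest fold of its list. Of its bases 45245 lay in peaks of all 10 lists. The next 4 regions by the lowest percentile lay within 62085072 and 62122529 of the same chromosome and were given the same highest partner peaks. The following 5 lay between 61849163 and 61905109, also on chromosome 13, and were tied with further regions there. The tied regions were given the same highest partner peaks, which they need not touch. None of these 10 regions touched a gene end.

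Distances between summits differed from protein to protein. For each region and list the summit of the highest peak was taken, and distances were summarised as the median over regions for each pair of lists. Between replicates this was 283 bp for INTS13, 832 bp for HDGF, 1406 bp for ZNF609, 1485 bp for ZEB1 and 2038 bp for INTS11, with a mean of 1209 bp ± 671 (SD, n = 5 pairs). Over the 40 pairs of different proteins the mean was 2556 bp ± 605 (SD), from 1330 to 3535 bp. The rule itself asks replicate peaks to overlap, while proteins only have to touch the INTS13 region, so shorter distances between replicates are built in and no test of them is given. With summits taken only from peaks that themselves touched the INTS13 region, in the 4130 regions where every list had one, the means were 1292 and 1741 bp.

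Among the partners HDGF summits lay nearest to those of INTS13. Their distance was 1347 bp ± 16.9 (SD, n = 4 list pairs), beside 1880 bp ± 40 for ZEB1, 2194 bp ± 26.2 for ZNF609 and 2694 bp ± 105 for INTS11. The summit can lie anywhere in the touching partner regions, so longer regions allow longer distances. All HDGF regions had a median width of 918 bp, beside 1226 bp for ZEB1, 1246.5 bp for ZNF609 and 1278 bp for INTS11. The share of region length in this order was not tested. The ranges of these 4 sets of list pairs did not overlap. However, the list pairs reuse the same libraries over the same regions, and all 4 sets share the INTS13 summits. They are not independent, so SDs and ranges over list pairs do not show how firm the order is. The order was not tested. INTS11 and ZNF609 were farthest apart, with 3412 bp ± 130. At 8 regions all 10 summits lay within 500 bp, at 56 (1.23%) within 1000 bp and at 1212 (26.6%) within 5000 bp; the median span was 9576 bp.

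**Figure D4:**
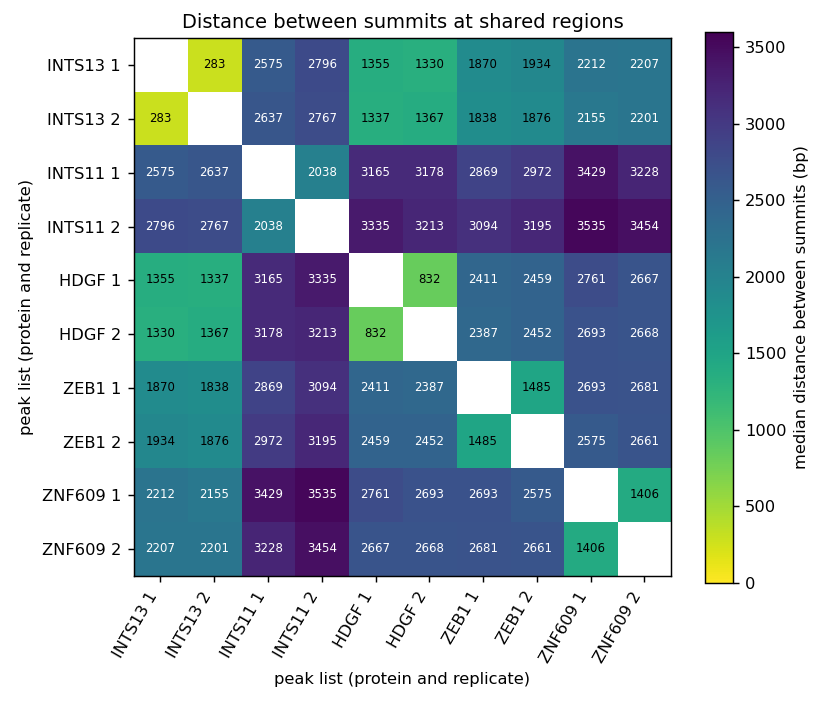
Median distance in bp between the summits of 2 peak lists over the 4549 shared regions, for every pair of the 10 lists (both axes: protein and replicate number); darker cells are larger distances. The lightest cell is the INTS13 replicate pair with 283 bp, and the darkest is INTS11 replicate 2 with ZNF609 replicate 1, at 3535 bp.

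The places where the 10 summits came closest were short and mostly modest in height. The smallest span, 186 bp, was in NBPF12 at chr1:146989250-146989791, a region of 542 bp outside the dense bins. Its folds were 6.23 and 4.44 in INTS13 replicates 1 and 2, 4.41 and 4.26 in INTS11, 4.73 and 6.04 in HDGF, 3.29 and 3.82 in ZEB1, and 4.10 and 3.77 in ZNF609, and its lowest percentile was 94.2. NBPF genes are a family of close copies, so the placing of reads there is uncertain. The second, with 192 bp, lay in the long non-coding gene LINC00376 at chr13:63200494-63201326 and had a lowest percentile of 76.4. Others lay in LINC00466 near FOXD3 on chromosome 1 (237 bp), in DACH1 (325 bp) and 8826 bp from UBE2N, an E2 ubiquitin-conjugating enzyme, at chr12:93450773-93452858 (371 bp). The lowest percentile of the LINC00466 region was 7.41, so closely placed summits did not go with high peaks there.

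How often shared regions lay at gene ends depended on the measure and on the chromosome. A gene end means the 1000 bp to either side of an annotated start or far end of a protein-coding or long non-coding RNA gene. Of the 4549 regions 694 touched one (15.3%, 95% Wilson interval 14.2 to 16.3), beside 14.2% of all INTS13 regions, 12.9% of those with no partner and 17.0% of those with 3. This interval too counts regions as independent, which neighbouring regions are not. Since wide regions reach more windows, the centre of the region was also used. The centre lay in such a window in 195 shared regions (4.29%) and in 8.64% of all INTS13 regions. Among regions of 2 to 5 kb, 10.9% of shared ones (162 of 1487) touched a gene end, beside 13.1% with 3 partners and 24.2% with none. Among those below 1 kb the shares were 2.14%, 4.59% and 8.46%. These width classes pool all chromosomes. On chromosome 13, 6.74% of shared regions touched a gene end, beside 4.14% of the other INTS13 regions in dense bins, whose median width was 1066 bp against 1936 bp. On chromosome 1 these shares were 30.8% and 11.9% (6106 and 1353 bp), and on the other chromosomes together 36.3% and 15% (6909 and 1422 bp).

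**Figure D5:**
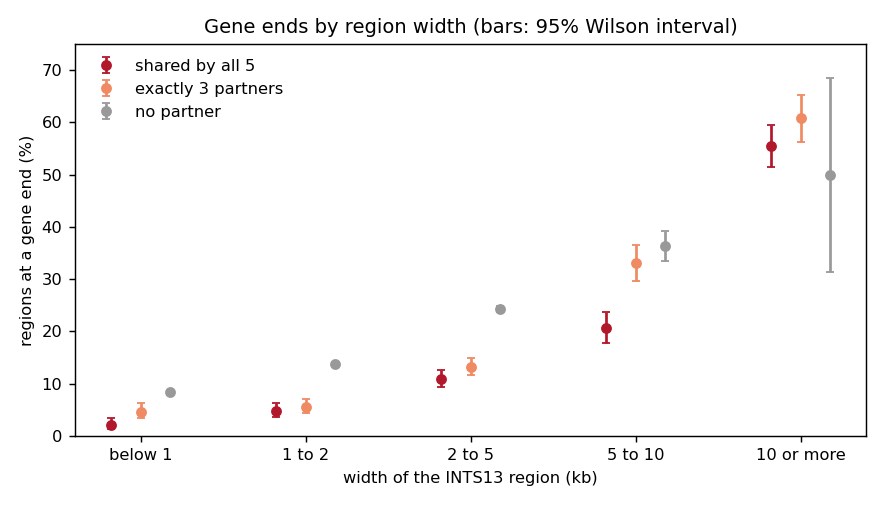
Percentage of INTS13 regions that touch a gene end (y axis) by width of the region in kb (x axis), for regions shared by all 5 proteins (red), with exactly 3 partners (orange) and with none (grey); bars are 95% Wilson intervals, which count regions as independent. Below 10 kb the shared regions lie below those with no partner in each width class. At 10 kb or more the shares are 55.5% of 575 shared regions and 50% of 24 with no partner. The classes pool all chromosomes, and chromosome 13 holds 66.9% of the shared regions but 4.52% of all INTS13 regions. Whether the order holds within a chromosome at a given width was not tested.

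By the centre of the region, which does not grow with its width, the shares within these places were closer. They were 2.60% of shared and 2.52% of other INTS13 regions in dense bins on chromosome 13, 6.74% and 6.35% on chromosome 1, and 9.91% and 8.03% on the other chromosomes together. Single chromosomes of this last group differed, here set beside all their other INTS13 regions, in dense bins or not. On chromosome 7, 18.5% of the centres of 81 shared regions lay at a gene end, beside 8.03%. On chromosome 17 none of 10 did, beside 12.2%. Starts and far ends of genes were touched alike, by 364 (8.0%) and 363 (7.98%) of the shared regions, beside 6.74% and 5.79% of all INTS13 regions. Strand was known for 27194 of 38147 genes. Gene bodies were touched by 57.4% of shared regions and 66.7% of all INTS13 regions. Within each place the order was the opposite, with 47.0% of shared and 38.8% of other INTS13 regions in dense bins on chromosome 13, 78.1% and 68.2% on chromosome 1, and 79.3% and 70.2% on the other chromosomes. Shares of starts, far ends and bodies count any contact of the whole region. Shared regions are wider in each place, and these shares are not corrected for width.

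Of 19970 protein-coding genes 430 had a shared region at an end (2.15%), whereas 12728 (63.7%) had an INTS13 region. All but 3 of the 430 lay in dense bins, 217 were on chromosome 1, 54 on chromosome 16, 46 on chromosome 7 and 31 on chromosome 13. Genes whose shared region had the highest peaks were NBPF1, TLE4, PCDH9, CSNK1E, TMEM184B, the readthrough gene TPTEP2-CSNK1E, KCNJ4, KDELR3, SRP9 and EPHX1, in the order of the lowest percentile of that region. The first 3 promoters printed above are those of the first 3 genes in this order. CSNK1E, TMEM184B and the readthrough gene share 1 region of 71457 bp, and KCNJ4 and KDELR3 share another, so these 10 genes stand for fewer places.

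TLE4 encodes a corepressor of the Groucho family. The shared region at its start, chr9:79548342-79608647, had folds of 9.69 and 6.27 in INTS13 replicates 1 and 2, 6.82 and 5.63 in INTS11, 8.68 and 9.76 in HDGF, 5.70 and 6.11 in ZEB1, and 5.98 and 5.52 in ZNF609. Its lowest percentile was 99.9. The 10 summits of these peaks spanned 127925 bp and the region only 60306 bp. Some of the folds therefore belong to peaks with summits beyond the region, and they do not give the height at the TLE4 start itself. The region covers the printed TLE4 promoter whole.

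At the start of PCDH9 the region chr13:67224046-67231972 had folds of 8.05 and 5.49 in INTS13, 5.24 and 4.47 in INTS11, 7.89 and 8.36 in HDGF, 4.60 and 4.58 in ZEB1, and 5.04 and 5.65 in ZNF609. At the start of NBPF1, another of the NBPF copies, the region chr1:16604482-16619266 had folds of 8.66 and 7.12 in INTS13, 7.03 and 5.41 in INTS11, 8.48 and 8.59 in HDGF, 6.35 and 5.73 in ZEB1, and 5.98 and 5.65 in ZNF609. At both regions the highest peak taken was in the top 1% of each of the 10 lists. Here too such a peak can have its summit beyond the region. At CSNK1E, which encodes a casein kinase of the circadian clock, the folds were 6.15 and 4.96 in INTS13, 4.48 and 4.11 in INTS11, 7.49 and 7.20 in HDGF, 4.71 and 4.33 in ZEB1, and 4.34 and 4.44 in ZNF609, with a lowest percentile of 98.8. SRP9, a subunit of the signal recognition particle, and EPHX1, an epoxide hydrolase, followed on chromosome 1 with lowest percentiles of 97.9 and 97.5.

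Gene lists of the Integrator, of ZEB1 and of common cell functions were nearly free of shared regions. None of 18 Integrator subunit genes had one at an end, nor did 20 cholesterol synthesis genes, 87 cytosolic ribosomal protein genes, 22 epithelial genes held down by ZEB1 or the genes of the 5 proteins. INTS13 regions by themselves were at 11 of the 18, 14 of the 20, 69 of the 87, 21 of the 22 and 3 of the 5. A single gene was hit in each of 5 other lists: DNAJB6, a co-chaperone, of 19 heat shock genes, ATF3 of 29 immediate early genes, SESN2 of 20 p53 targets, H2BC26 of 68 replication-dependent histone genes and RNU11, the U11 RNA of the minor spliceosome, of 39 spliceosomal RNA genes. With 2.15% of all coding genes hit, these counts are too small to set a list apart. H2BC26 and RNU11 have near-identical copies elsewhere, so reads there may be misplaced and both are uncertain. SESN2 had the highest region of these coding genes, with a lowest percentile of 84.1, followed by H2BC26 with 52.2, ATF3 with 36.2 and DNAJB6 with 34.0.

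Promoters inside shared regions had nearly the median base composition of other promoters with INTS13. Of 15811 coding genes in the promoter table (300 bases, from 250 before to 50 after the start), 273 lay whole in a shared region and 6825 in any INTS13 region. Their median GC content was 65.3% and 65.0%, and that of all 15811 was 62.7%; the median numbers of CG pairs were 26, 25 and 22. The ZEB1 E-box CAGGTG was present on either strand in 22.3% of promoters in shared regions, 20.4% of those in INTS13 regions and 19.9% of all. GGGCGG was in 66.7%, 67.4% and 58.5%, CCAAT in 34.4%, 35.9% and 36.3%, TATAAA in 5.13%, 5.82% and 9.64%, and GCGTGGGCG, which can overlap GGGCGG, in 1.47%, 1.17% and 1.09%. TGACGTCA was in 15 of the 273 (5.49%), beside 2.99% in INTS13 regions, 2.59% of all, and 4 of 336 (1.19%) in regions with exactly 3 partners. These shares are descriptions, with no test. Lying in a shared region did not place all 5 proteins on the promoter itself: peaks of all 10 lists overlapped the 300 bases in 7 of the 273 (2.56%), and peaks of at least 1 list of each protein in 65 (23.8%). ZNF609 peaks overlapped 28.2% and 11% of these promoters in replicates 1 and 2, ZEB1 peaks 45.4% and 42.9%, HDGF peaks 64.1% and 56.8%, and INTS11 peaks 93.4% and 67.8%.

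Only 114 shared regions lay outside dense bins, and most of these were in 2 places. The first is chr13:61742944-62001352, next to the saturated stretch, with 43 shared regions out of 43 INTS13 regions in that bin. The second, between 79169038 and 80168445 on chromosome 9, held 51, of which 49 were among the 52 INTS13 regions of the bin from 79 to 80 Mb. TLE4 lies there, and regions of each of the 5 proteins covered between 72.9% and 76.1% of that bin. Both places had few but long peaks, so their relative density by peak number was 0.542 and 1.20. When density was measured by covered bases, a choice made after seeing these values, 99.5% of the shared regions lay in dense bins. On chromosome 13, 34 of the 43 regions had their highest peak in the top 1% of all 10 lists, and on chromosome 9 46 of the 51. Many of them were given the same highest partner peaks, so these are not counts of separate peaks. Over the 114 regions the median span of the 10 summits was 122541 bp, beside a median width of 4672 bp. Each of the 43 and 51 regions had a base in peaks of all 10.

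The other 20 regions outside dense bins were lower, with a median lowest percentile of 52.2, and 7 of them had a base in peaks of all 10 lists. A pair lay beside and over GPRIN2, a gene of neurite outgrowth, on chromosome 10. The one over the gene, chr10:46531896-46561609, had folds of 6.49 and 5.62 in INTS13, 4.75 and 4.47 in INTS11, 5.92 and 6.04 in HDGF, 4.49 and 4.84 in ZEB1, and 4.22 and 4.04 in ZNF609, and a lowest percentile of 97.3. Another covered STX4, which encodes a syntaxin of the plasma membrane, at chr16:31013626-31047487, with a lowest percentile of 52.2 and 0 bases in peaks of all 10 lists.

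Few regions lay close to the limit of the rule. The member with the least overlap, chr13:90800218-90800771, shared 1 bp with an HDGF region, and 64 members (1.41%) shared 100 bp or fewer with 1 of the partners, while the median of the smallest overlap was 1127 bp. Of the 4820 regions with exactly 3 partners, 76 (1.58%) had the missing partner less than 100 bp away, and the closest, chr1:64587534-64588966, lay against a ZNF609 region with 0 bp between them.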

How the data were processed

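Peak lists of 10 libraries were analysed, 2 for each of 5 proteins; the 2 input libraries were not used here. Per the submitters' processing notes, the tools were MACS2, Picard, Bowtie, Trimmomatic and FastQC. Their versions, the control library and the thresholds were not given in the sources used here. Lists as deposited by the authors hold peaks called on each library by itself, with the fold as a ratio of the summit to the background, −log10 p-values and q-values, and a score that lies within 1 of 10 times the −log10 q. Of 39 alternate contig names in the files, 24 carry accessions of the GRCh38 style, from which the build was inferred to be GRCh38; positions count from 1. Read depth is unknown, so no counting error is given for a fold, and Wilson intervals cover the counting of regions only.

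Peaks on chromosomes 1 to 22 and X, 26409 to 416964 per list, were used. Overlapping peaks of a protein's lists were merged, and merged regions with a peak of each list were kept. For summit distances, the peak with the highest fold was taken among peaks of the protein's regions at a member, and 119 summits written past a peak's end were set to its last base. Mean median distances within and between proteins were computed; the planned permutation test of their difference supports nothing here, because the rule already ties replicates together. On simulated lists 295 of 300 planted shared regions were found. These lists held short peaks at separate sites, so the recovery does not cover long regions or crowded stretches. Genes and promoters are from RefSeq (GRCh38.p14). Named regions are the 10 with the highest lowest-library percentile, the 10 with the smallest summit span (some given by example) and the 5 widest, of which 1 is not reported here; named genes are the 10 with the highest lowest-library percentile. Members and gene lists were chosen with earlier results of these data known. Python 3.11.15, numpy 2.4.6, pandas 2.3.3 and scipy 1.17.1 were used. Alternatives left out each library in turn, raised thresholds, asked for more overlap, left out broad peaks or dense bins, or changed windows and summits.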

Additional observations from a re-analysis of the deposited data

How the results depend on the processing

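Between-protein minus replicate distance of summits was positive in all 19 alternatives run, from 449 to 10899 bp, but each of them keeps the overlap of replicate peaks that favours this sign, so their number shows no stability. With one library left out at a time it lay between 1012 and 1301 bp. In the replicate block, which compares only replicate 1 with replicate 2 lists, it was 1343 bp. Lists of different proteins lay 2560 bp apart with the same replicate number and 2552 bp with different numbers. A shared culture need not shorten these distances, so they do not tell whether replicate numbers name one.

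With one library left out, the number of shared regions lay between 4553 and 6063, the share in dense bins between 96.0% and 97.9%, the share at gene ends between 10.8% and 18.2%, and the median width between 1351.5 and 2979.5 bp. A −log10 q of 5 or more left 763 regions, with 88.2% in dense bins and 9.57% at gene ends. The top 10000 peaks of each list left 859, with 89.5%, 19.2% and a median width of 4128 bp. Asking each partner to cover at least 50% of the INTS13 region left 2438, with 96.1%, 7.83% and 1770.5 bp. Peaks narrower than 10 kb left 2486, with 99.4% and 13%, and 0 of the 10 strongest named regions, which hold broader peaks. The 114 regions outside dense bins had 10.5% at gene ends and a median width of 4672 bp. The share at gene ends was 13.7% with windows of 500 bp, 8.0% for starts only and 4.29% for centres of regions. Density by covered bases put 99.5% in dense bins. The settings with centres, covered bases and touching peaks were chosen after seeing the data. Read depth is unknown, so whether a region without a ZNF609 or ZEB1 peak lacks the protein or the depth to show it cannot be told apart.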

Other observations

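A few small shared regions stood outside the crowded stretches with a base in peaks of all 10 lists, and were picked out after their values were seen. One, of 1863 bp at chr10:26938485-26940347 in FAM238C, lay 7235 bp from ANKRD26, its 10 summits lay within 608 bp and its lowest percentile was 91.4. Another, of 944 bp at chr1:120133246-120134189, lay 16709 bp from SEC22B, its summits within 645 bp, with a lowest percentile of 92.9. The region near UBE2N on chromosome 12 had folds of 3.72 and 3.98 in INTS13, 3.17 and 3.39 in INTS11, 5.13 and 4.65 in HDGF, 3.18 and 3.82 in ZEB1, and 2.93 and 3.36 in ZNF609. These differ from the long regions of chromosomes 9 and 13 in width, and the bins around them held between 7 and 84 INTS13 regions with 1 shared region each.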
